A study of Sus scrofa with 11 samples.

Results

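Stented porcine coronary arteries that were kept in a bioreactor without flow were compared with native coronary arteries that had not been cultured. The comparison rests on 4 of the 11 RNA sequencing libraries of the series, chosen by their sample labels: 2 libraries titled Native control and 2 titled Stent/Flow -. The other 7 libraries came from cultured vessels under flow, with a stent and the stronger flow mark (stented high-flow, 3 libraries), without a stent under the stronger mark (high-flow, 2 libraries) or without a stent under the weaker mark (low-flow, 2 libraries). They entered the same fit and served to show where stented static vessels differed from other cultured vessels. Both stented static libraries carry a d suffix of 3 in their sample descriptions and 1 stented high-flow library a suffix of 7, and the meaning of that suffix, the strain, sex and age of the pigs and the number of animals are all left unstated by the labels. No unstented static vessel is among the groups, so the stent, the absence of flow and the time in culture cannot be told apart when stented static vessels are set against native ones. The libraries of a group are not stated to come from separate animals, and p-values therefore measure only the spread between these libraries, which may be technical.

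The wall of a coronary artery consists mostly of contractile smooth muscle, lined by endothelium and wrapped in an adventitia with fibroblasts, nerves, resident macrophages and fat. Smooth muscle cells that are injured or placed in culture are known to lose contractile proteins and to take up migration, matrix synthesis and growth, and a stent stretches the wall while pulsatile flow loads it. Macrophages that take up debris and lipid are known to expand their lysosomes and to induce genes of iron, haem and cholesterol handling.

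Levels are given in counts per 1e6 (CPM) on scaled library sizes for each library, and the replicates are written native 1, native 2, static 1 and static 2. Changes are fitted log2 fold changes ± standard error from edgeR, positive where stented static vessels were higher. A gene was called when its Benjamini-Hochberg adjusted p over 15348 genes was under 0.05 in edgeR's quasi-likelihood test. A call is described as kept when the gene was also called, in the same direction, in each of the 4 fits that left out native 1, native 2, static 1 or static 2.

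The 4 libraries held 17507068, 20242681, 21864217 and 14229777 counts, and 3 counts in 1 library correspond to 0.119 to 0.195 CPM. The native libraries correlated at 0.971 in log2 CPM and the stented static ones at 0.933. Smooth muscle markers were present throughout, with a summed level of 32340.0 and 39480.0 CPM in native and 582.3 and 3173 CPM in stented static vessels, none of them at 0. Endothelial markers summed to 1053 and 1206 CPM in native and 1280.0 and 499.1 CPM in stented static vessels. Transcripts from the Y chromosome were counted in native vessels (EIF1AY 734 and KDM5D 498 counts over both libraries) and were at 0 in static 1 and static 2, so the groups also differ in Y-linked transcripts, and the animals and the treatment cannot be told apart. EIF1AY was at 237 to 368 counts in the 5 libraries under the stronger flow mark and at 1 and 0 counts in the low-flow ones, so the same holds for the comparison with stented high-flow vessels and, in part, for that with all other cultures. The mitochondrially encoded share of counts was 10.3% and 10.7% in native against 3.19% and 4.65% in stented static vessels. These are bulk libraries, in which fewer cells of a type and less RNA per cell cannot be told apart.

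Between stented static and native vessels, 1955 of 15348 genes were called (12.7%), 851 of them higher (5.54%) and 1104 lower (7.19%) in stented static vessels. The median log2 fold change was 2.25 in size over the called genes and 0.02 over all genes. Of these calls 397 were kept (2.59% of the genes tested), 108 of them higher (0.704%) and 289 lower (1.88%). The number of calls was 636 without native 1, 514 without native 2, 805 without static 1 and 1671 without static 2. The authors' deposited table for this comparison lists 553 genes, of which 534 could be matched to tested genes. It includes 329 of the 397 kept genes with the same direction. Shares of called members in the gene lists below are to be read against 5.54% higher and 7.19% lower over all genes.

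**Figure D1:**
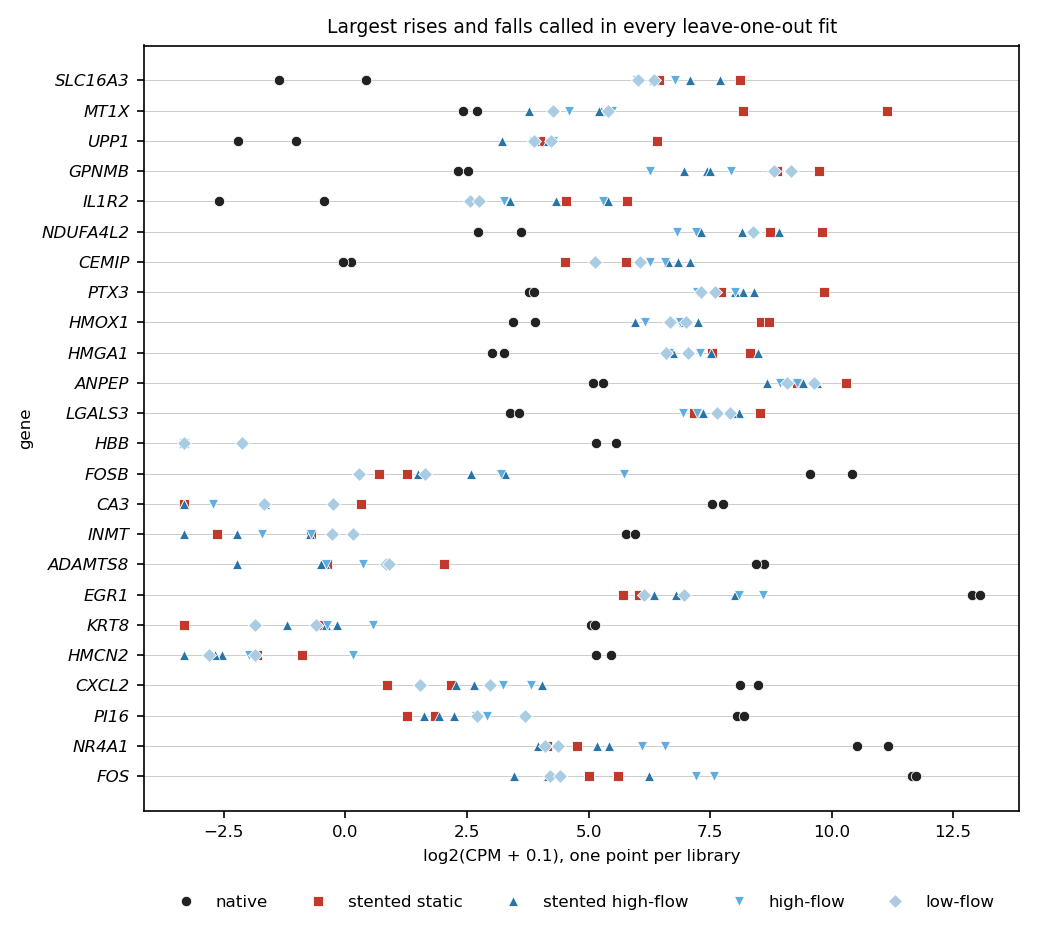
Expression in all 11 libraries, as log2(CPM + 0.1), of the 12 largest kept rises (upper rows) and 12 largest kept falls (lower rows) of stented static against native vessels, 1 point per library and 1 colour and shape per group. Both stented static libraries lie to the right of both native ones in the upper rows and to the left in the lower rows, and MT1X was at 2247 and 290.5 CPM in stented static vessels and at 13.6 to 44.6 CPM in the other cultures. Of the genes shown only MT1X, GPNMB and HMOX1 were also called against the other cultures.

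The 12 largest kept rises with a gene symbol and a mean log2 CPM of at least 5 had diverse roles. Only MT1X, GPNMB and HMOX1 of them were also called against the other cultured vessels. The monocarboxylate transporter SLC16A3 (chromosome 12, 796882 to 807480 in Sscrofa11.1), which exports lactate, stood at 1.24 and 0.288 CPM in native and 276 and 87.8 CPM in stented static vessels, a change of 7.91 ± 0.86 (edgeR adjusted p = 0.000626). The metallothionein MT1X, a cysteine-rich protein that binds zinc and copper, stood at 5.21 and 6.38 CPM in native and 2247 and 290.5 CPM in stented static vessels (7.77 ± 1.04, edgeR adjusted p = 0.00152). Metallothionein genes are near-identical copies, so the counts of MT1X may be shared with relatives. Static 1 was the higher library for both genes, and both stented static libraries were far above both native ones. Uridine phosphorylase UPP1, which breaks down uridine, went from 0.391 and 0.115 CPM in native to 84.2 and 16.0 CPM in stented static vessels (7.63 ± 0.91). NDUFA4L2, a paralogue of a respiratory chain subunit that is known to be induced by low oxygen, was at 12.1 and 6.50 CPM in native and 896 and 426 CPM in stented static vessels (6.15 ± 0.64).

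GPNMB (chromosome 9, 92037428 to 92071501), a transmembrane glycoprotein known from lysosome-rich macrophages, stood at 4.88 and 5.64 CPM in native and 859.6 and 468 CPM in stented static vessels (6.98 ± 0.62, edgeR adjusted p = 0.000293). Which cells carried GPNMB and the other genes of this paragraph was not tested. Galectin-3, encoded by LGALS3 (chromosome 1, 184478639 to 184496155), a secreted lectin, was at 10.3 and 11.7 CPM in native and 369.5 and 144 CPM in stented static vessels (4.54 ± 0.47). Haem oxygenase HMOX1, which opens the haem ring and releases iron, was at 14.9 and 10.8 CPM in native and 376 and 418 CPM in stented static vessels (4.95 ± 0.48). The 2 stented static libraries were close to each other for HMOX1 and more than their own spread above native. ANPEP (chromosome 7, 55351081 to 55373856), a membrane aminopeptidase, was at 39.4 and 33.8 CPM in native and 1261 and 624 CPM in stented static vessels (4.69 ± 0.48).

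Static 2 was the higher library for IL1R2, PTX3 and CEMIP. The decoy receptor IL1R2 (chromosome 3, 52367434 to 52406393), which binds interleukin-1 without signalling, was at 0.0651 and 0.633 CPM in native and 22.96 and 54.9 CPM in stented static vessels (6.73 ± 1.07). Pentraxin PTX3 (chromosome 13, 97273594 to 97279570), a soluble pattern recognition protein, was at 13.5 and 14.6 CPM in native and 210 and 922 CPM in stented static vessels (5.33 ± 0.64). The hyaluronan-degrading protein CEMIP (chromosome 7, 49622534 to 49792547) was at 0.977 and 0.863 CPM in native and 22.8 and 54.1 CPM in stented static vessels (5.38 ± 0.52). By contrast HMGA1 (chromosome 7, 30320090 to 30329413), a chromatin protein of growing cells, was higher in static 1, at 9.44 and 7.995 CPM in native and 318 and 186 CPM in stented static vessels (4.85 ± 0.58). The edgeR adjusted p-values of these 4 genes were 0.00341, 0.000906, 0.000436 and 0.000942, in the order given.

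No gene among the 12 largest kept falls was called against the other cultured vessels. These falls included 4 immediate early transcription factors, FOSB, EGR1, NR4A1 and FOS. EGR1 (chromosome 2, 140440829 to 140445302) was at 7611 and 8459 CPM in native and 52.0 and 65.5 CPM in stented static vessels and NR4A1 (chromosome 5, 17403088 to 17407918) at 2273 and 1475 CPM in native and 27.2 and 17.7 CPM in stented static vessels. FOS stood at 3205 and 3395 CPM in native and 48.8 and 31.9 CPM in stented static vessels, and FOSB at 1374 and 753 and 1.502 and 2.31 CPM. These genes are known to be induced within minutes of a stimulus. The labels do not say how long each vessel waited before freezing.

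The remaining kept falls were of genes with diverse roles. Carbonic anhydrase CA3 (chromosome 4, 51227485 to 51237861), an enzyme of muscle and fat, was at 219 and 185 CPM in native and 1.15 and 0 CPM in stented static vessels (-8.31 ± 1.04). INMT (chromosome 18, 42213335 to 42218175), a methyltransferase, was at 54.3 and 62.2 CPM in native and 0.514 and 0.0608 CPM in stented static vessels (-7.51 ± 0.96). The protease ADAMTS8 (chromosome 9, 57090313 to 57113077) was at 388 and 347 CPM in native and 0.672 and 3.95 CPM in stented static vessels (-7.36 ± 0.80, edgeR adjusted p = 0.000627). In each of these 3 genes both stented static libraries lay below 5 CPM, and the native libraries did not overlap with them. HMCN2 (chromosome 1, 270364005 to 270522977), a large extracellular immunoglobulin-domain protein, was at 35.5 and 43.8 CPM in native and 0.435 and 0.182 CPM in stented static vessels (-6.92 ± 0.85). The keratin KRT8 (chromosome 5, 18172423 to 18180277) was at 33.3 and 35.1 CPM in native and 0 and 0.608 CPM in stented static vessels (-6.96 ± 1.07). The adventitial fibroblast gene PI16 (chromosome 7, 32600952 to 32613505), a secreted peptidase inhibitor homologue, was at 266 and 294 CPM in native and 2.29 and 3.47 CPM in stented static vessels (-6.61 ± 0.45, edgeR adjusted p = 0.000211).

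CXCL2 (chromosome 8, 70157253 to 70159145), a chemokine for neutrophils with close paralogues, was at 278 and 361 CPM in native and 4.39 and 1.70 CPM in stented static vessels (-6.69 ± 0.80). Haemoglobin HBB (chromosome 9, 4800683 to 4801941) had 1366 counts over the native libraries and 0 over the stented static ones, at least 580.5-fold lower with 3 counts over the group as the floor. That bound covers counting error only. Erythrocyte and platelet markers as a whole summed to 41.0 and 51.7 CPM in native and 5.89 and 3.77 CPM in stented static vessels.

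**Figure D2:**
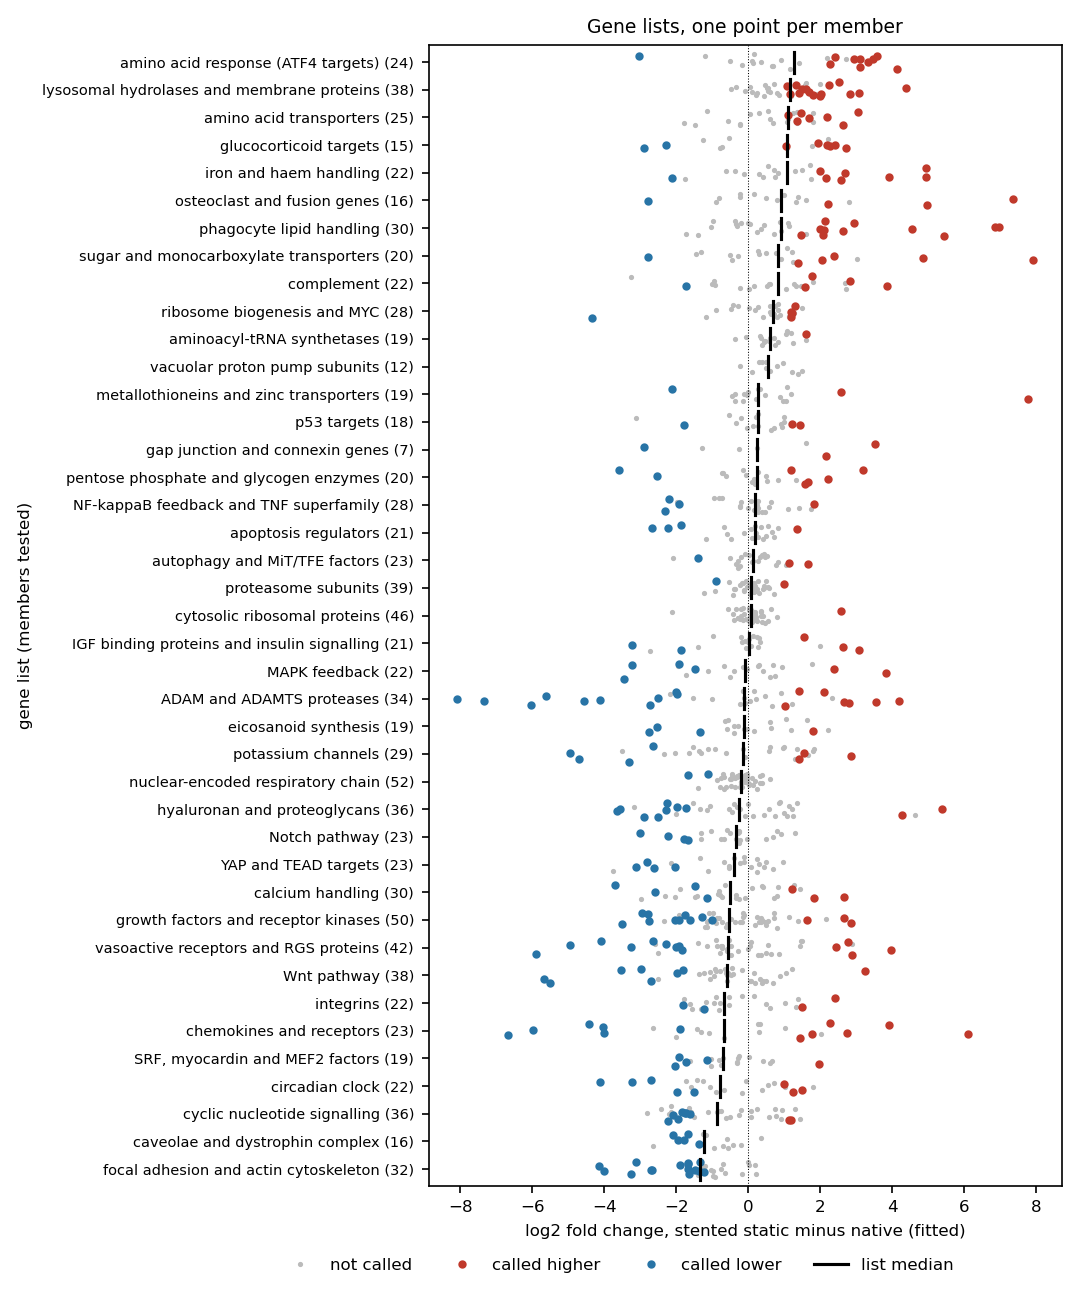
Fitted log2 fold change of stented static minus native vessels for each tested member of 41 gene lists, ordered by list median (black bars), with called members in red (higher) or blue (lower). The ATF4 target and lysosomal lists stand at the top, with medians of 1.28 and 1.16, and the focal adhesion list at the bottom, with a median of -1.33. The median over all genes was 0.02.

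Some lysosomal genes were higher in stented static vessels. For hydrolases and membrane proteins of the lysosome, 15 of 38 tested members rose and 0 fell (median 1.16), which is 39.5% higher calls against 5.54% over all genes. The cysteine proteases cathepsin B and cathepsin H were the 2 kept calls. CTSB stood at 453 and 489.9 CPM in native and 4824 and 1799 CPM in stented static vessels (2.81 ± 0.43, edgeR adjusted p = 0.00291) and CTSH at 117 and 129.9 CPM in native and 1455 and 630.3 CPM in stented static vessels (3.08 ± 0.45, adjusted p = 0.00224). Cathepsin L, CTSL, was at 13.3 and 10.1 CPM in native and 424 and 67.9 CPM in stented static vessels (4.39 ± 0.86) and the aspartic protease cathepsin D, CTSD, at 397 and 367 CPM in native and 3642 and 725 CPM in stented static vessels (2.51 ± 0.73). In all 4 cathepsins static 1 was the higher library. The tetraspanin CD63, the uncalled member with the highest level, was at 350.4 and 406 CPM in native and 683 and 427 CPM in stented static vessels. The counts of higher and lower calls in the list were 2 and 0 without native 1, 3 and 0 without native 2, 4 and 0 without static 1 and 21 and 0 without static 2. Macrophage markers moved with this list: they summed to 685.0 and 680.6 CPM in native, 2604 CPM in static 1 and 1154 CPM in static 2, and their part in the result was not tested.

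The proton pump that acidifies lysosomes gave no calls: of 12 tested vacuolar pump subunits 0 rose and 0 fell (median 0.55). The matched subunits summed to 498.5 and 566.9 CPM in native and 1065 and 688.4 CPM in stented static vessels. The lack of calls does not show that their levels were unchanged. For autophagy genes and the MiT/TFE factors that drive lysosomal gene expression, 2 of 23 tested members rose (8.7%) and 1 fell (4.35%, median 0.12). The cargo receptor SQSTM1 changed by 1.12 ± 0.29 and the folliculin gene FLCN by 1.65 ± 0.42, while the transcription factor TFEB went from 73.7 and 64.1 CPM to 28.6 and 23.4 CPM (-1.41 ± 0.38). None of these 3 calls was kept.

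Among genes of iron and haem handling 7 of 22 tested members rose and 1 fell (median 1.06), 31.8% higher calls, and 5 calls were kept. Besides HMOX1, the iron exporter of the phagosome SLC11A1 was at 0.195 and 0.863 CPM in native and 23.6 and 10.04 CPM in stented static vessels (4.95 ± 0.72, edgeR adjusted p = 0.00212). The haemoglobin scavenger receptor CD163, also a macrophage marker, was at 55.1 and 46.1 CPM in native and 1075 and 445 CPM in stented static vessels (3.91 ± 0.56). The endosomal iron reductase STEAP3 was at 13.4 and 13 CPM in native and 127 and 42.1 CPM in stented static vessels (2.68 ± 0.44) and the zinc and iron importer SLC39A14 at 97.7 and 90.5 CPM in native and 619 and 499 CPM in stented static vessels (2.57 ± 0.30). SLC39A8, a related importer, fell (-2.13 ± 0.54), a call that was not kept. The iron exporter SLC40A1 was at 86.2 and 85.6 CPM in native and 84.6 and 220.3 CPM in stented static vessels and did not pass (0.83 ± 0.57, edgeR adjusted p = 0.370).

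Of phagocyte lipid genes 11 of 30 tested members rose and 0 fell (median 0.90), 36.7% higher calls. The scavenger receptor MSR1 was at 2.93 and 3.11 CPM in native and 25.1 and 21.2 CPM in stented static vessels (2.94 ± 0.36, edgeR adjusted p = 0.000982), a kept call like those of GPNMB and LGALS3. The chitinase-like protein CHI3L1 was at 0.716 and 0.230 CPM in native and 67.7 and 40.9 CPM in stented static vessels (6.85 ± 1.24), a call that was not kept. MARCO, a scavenger receptor, had 1 count over native and 74 over stented static libraries, a CPM ratio of 58.0 (95% counting interval 10.1 to 2323). The counts of higher and lower calls were 4 and 0 without native 1, 3 and 0 without native 2, 4 and 0 without static 1 and 10 and 0 without static 2, and the list median was 0.26 without static 1. Lipoprotein lipase LPL, at 1011 and 655 CPM in native and 509 and 119.8 CPM in stented static vessels, did not pass (-1.41 ± 0.76).

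Macrophage markers gave 6 rises and 0 falls among 19 tested (median 1.03, and 0.40 without static 1). Of the macrophage markers 2, 2, 2 and 7 rose and 0 fell without native 1, native 2, static 1 and static 2 in turn. CD14, a lipopolysaccharide co-receptor, was at 12.9 and 10.6 CPM in native and 113 and 27.9 CPM in stented static vessels (2.59 ± 0.61), and the complement component C1QC, at 102 and 99.2 CPM in native and 280.3 and 131 CPM in stented static vessels, did not pass. Of 9 lymphocyte markers 2 rose: IL7R was at 0.130 and 0.230 CPM in native and 13.4 and 0.487 CPM in stented static vessels and NKG7 at 4.88 and 5.06 CPM in native and 41.6 and 8.94 CPM in stented static vessels. Static 1 was the higher library for both, and neither was called without native 1, native 2 or static 1. Of 16 genes of osteoclasts and cell fusion 3 rose (18.8%) and 1 fell (6.25%). The acid phosphatase ACP5 was at 1.89 and 1.61 CPM in native and 96.5 and 12.8 CPM in stented static vessels (4.97 ± 0.89), the membrane metalloproteinase MMP14 at 412 and 474 CPM in native and 2607 and 1468 CPM in stented static vessels (2.20 ± 0.36) and the creatine kinase CKB at 348 and 321.1 CPM in native and 53.5 and 43.5 CPM in stented static vessels (-2.78 ± 0.33). The gelatinase MMP9 had 3 counts over native and 768 over stented static libraries, a CPM ratio of 201 (95% counting interval 68.5 to 975.8).

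Targets of ATF4, the transcription factor of the amino acid stress response, moved mostly upwards among the called members: 9 of 24 tested members rose and 1 fell (median 1.28), 37.5% higher calls. DDIT4, an inhibitor of the growth kinase mTORC1, stood at 71.9 and 74.4 CPM in native and 888 and 589 CPM in stented static vessels (3.34 ± 0.35, edgeR adjusted p = 0.000534). The mitochondrial serine hydroxymethyltransferase SHMT2 was at 34.1 and 25.2 CPM in native and 186 and 130.4 CPM in stented static vessels (2.42 ± 0.32) and the angiogenic factor VEGFA at 100.2 and 59.3 CPM in native and 887 and 472 CPM in stented static vessels (3.09 ± 0.46). These 3 rises and the fall of ATF3 (375 and 334 to 52.99 and 33.1 CPM, -3.04 ± 0.48), an immediate early gene as well as an ATF4 target, were kept. CEBPB, the uncalled member with the highest level, was at 338 and 282 CPM in native and 461 and 213 CPM in stented static vessels. The counts of higher and lower calls were 5 and 1 without native 1, 3 and 1 without native 2, 6 and 1 without static 1 and 9 and 1 without static 2.

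Amino acid transporters showed 7 rises and 0 falls among 25 tested (median 1.09). Of these transporters 1, 1, 1 and 8 rose and 0, 0, 0 and 1 fell without native 1, native 2, static 1 and static 2 in turn. The lysosomal glutamine exporter SLC38A7 was at 12.6 and 9.72 CPM in native and 65.8 and 36.1 CPM in stented static vessels (2.19 ± 0.35, edgeR adjusted p = 0.00341), the 1 kept call. The taurine transporter SLC6A6 was at 16.9 and 16.2 CPM in native and 182 and 89.8 CPM in stented static vessels (3.04 ± 0.65) and the glycine transporter SLC6A9 at 4.69 and 3.39 CPM in native and 29.5 and 20.2 CPM in stented static vessels (2.62 ± 0.60). SLC38A2, a glutamine importer, was at 194 and 170.4 CPM in native and 167 and 277 CPM in stented static vessels and did not pass. Of 19 aminoacyl-tRNA synthetases only VARS1, for valine, was called (1.60 ± 0.47), and the call was not kept.

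Transporters and enzymes of sugar metabolism moved in both directions. For sugar and monocarboxylate transporters 5 of 20 tested members rose and 1 fell (median 0.84). In this list 2, 1, 3 and 3 rose and 0 fell without native 1, native 2, static 1 and static 2 in turn. The fructose transporter SLC2A5 was at 1.17 and 0.173 CPM in native and 33.1 and 4.74 CPM in stented static vessels (4.84 ± 1.03), while the carrier SLC16A9 was at 4.82 and 5.70 CPM in native and 0.790 and 0.730 CPM in stented static vessels (-2.78 ± 0.75). The insulin-regulated glucose transporter SLC2A4, at 61.0 and 44.4 CPM in native and 23.1 and 18.9 CPM in stented static vessels, did not pass. For the pentose phosphate pathway and glycogen, 5 of 20 tested members rose and 2 fell (median 0.23). Among these enzymes 0, 0, 2 and 5 rose and 2 fell without native 1, native 2, static 1 and static 2 in turn. Both kept calls were falls of glycogen phosphorylases, which release glucose from glycogen: muscle PYGM was at 56.7 and 38.0 CPM in native and 2.13 and 5.78 CPM in stented static vessels (-3.59 ± 0.52, edgeR adjusted p = 0.00206) and brain PYGB at 38.4 and 35.6 CPM in native and 6.56 and 6.204 CPM in stented static vessels (-2.53 ± 0.33, adjusted p = 0.00141). UGP2, which makes the substrate of glycogen synthesis, was at 58.3 and 74.7 CPM in native and 322 and 301 CPM in stented static vessels (2.23 ± 0.51), and PPP1R3C, which targets a phosphatase to glycogen, was at 32.3 and 26.98 CPM in native and 214 and 323 CPM in stented static vessels (3.18 ± 0.67). These rises were not kept.

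Calls among genes of the cytoskeleton and its anchors were falls. For focal adhesion and actin cytoskeleton genes 0 of 32 tested members rose and 15 fell (median -1.33), 46.9% lower calls against 7.19% over all genes, and 5 falls were kept. The LIM-domain protein CSRP1 was at 3853 and 4753 CPM in native and 194 and 296 CPM in stented static vessels (-4.13 ± 0.52, edgeR adjusted p = 0.00107). The actin-binding protein nexilin, NEXN, was at 1052 and 1706 CPM in native and 31.1 and 141 CPM in stented static vessels (-4.00 ± 0.74), the actin-depolymerising factor DSTN at 1585 and 2127 CPM in native and 141 and 284 CPM in stented static vessels (-3.13 ± 0.56) and PDLIM7 at 1187 and 1090.0 CPM in native and 125 and 114 CPM in stented static vessels (-3.25 ± 0.42). Static 1 was the lower library for CSRP1, NEXN and DSTN, and static 2 was slightly lower for PDLIM7. Vimentin, VIM, the intermediate filament of mesenchymal cells, was at 5011 and 6823 CPM in native and 3204 and 4372 CPM in stented static vessels and did not pass (-0.64 ± 0.37). The counts of higher and lower calls were 0 and 10 without native 1, 0 and 7 without native 2, 0 and 7 without static 1 and 0 and 18 without static 2. Smooth muscle markers moved with this list, and their part was not tested: 7 of 10 fell and 0 rose (median -3.73, and 0 rose and 5, 2, 3 and 7 fell without native 1, native 2, static 1 and static 2 in turn), with MYL9, a myosin light chain, at 4557 and 5996 CPM in native and 36.4 and 338 CPM in stented static vessels.

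Among genes of caveolae, the membrane pits of smooth muscle and endothelium, and of the dystrophin complex, 0 of 16 tested members rose and 5 fell (median -1.22). Among the caveolar genes 0 rose and 2, 0, 0 and 3 fell without native 1, native 2, static 1 and static 2 in turn. SSPN, CAVIN2, CAV2 and SGCE changed by -2.09, -1.94, -1.80 and -1.68, and no call was kept. Of 23 targets of YAP and TEAD, which respond to stretch and stiffness, 4 fell and 0 rose (median -0.39). The matricellular protein CCN1 was at 683 and 716 CPM in native and 62.2 and 99.0 CPM in stented static vessels (-3.12 ± 0.56, edgeR adjusted p = 0.00571) and its relative CCN2 at 266 and 323 CPM in native and 50.4 and 93.2 CPM in stented static vessels (-2.04 ± 0.41). CRIM1, a membrane protein that binds BMPs, was at 176 and 229 CPM in native and 25.4 and 32.4 CPM in stented static vessels (-2.81 ± 0.37), and the LIM protein AJUBA at 56.3 and 52.0 CPM in native and 6.05 and 11.8 CPM in stented static vessels (-2.61 ± 0.41). All but the fall of CCN2 were kept. The receptor kinase AXL was at 240.2 and 271 CPM in native and 148 and 207 CPM in stented static vessels and did not pass.

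Transcription factors of the muscle programme gave 1 rise (5.26%) and 4 falls (21.1%) among 19 tested (median -0.69). Of these factors 1, 0, 1 and 1 rose and 2 fell without native 1, native 2, static 1 and static 2 in turn. Serum response factor, SRF, which drives contractile genes, was at 166 and 174 CPM in native and 45.2 and 56.3 CPM in stented static vessels (-1.74 ± 0.24, edgeR adjusted p = 0.00163) and GATA6 at 163 and 159 CPM in native and 37.9 and 46.8 CPM in stented static vessels (-1.93 ± 0.28). Both calls were kept, and in both genes the 2 stented static libraries were close together. MEF2C was at 65.1 and 87.1 CPM in native and 15.6 and 21.4 CPM in stented static vessels (-2.04 ± 0.51). KLF15, a factor known to be induced by glucocorticoids and fasting, was at 16.1 and 12.1 CPM in native and 57.3 and 53.3 CPM in stented static vessels (1.97 ± 0.34), a call that was not kept.

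Calcium handling genes held calls in both directions: 3 of 30 tested members rose (10%) and 4 fell (13.3%, median -0.49). Over all genes the shares were 5.54% and 7.19%. Of the calcium genes 1, 1, 2 and 4 rose and 1, 1, 2 and 4 fell without native 1, native 2, static 1 and static 2 in turn. The sodium-calcium exchanger SLC8A1 was at 75.9 and 93.8 CPM in native and 9.40 and 18.8 CPM in stented static vessels (-2.59 ± 0.43, edgeR adjusted p = 0.00427), and the store-operated channel subunit ORAI3 at 18.8 and 22.0 CPM in native and 82.6 and 62.5 CPM in stented static vessels (1.83 ± 0.29, adjusted p = 0.00312). These were the 2 kept calls. The ryanodine receptor RYR3 was at 21.4 and 12.8 CPM in native and 0.435 and 2.25 CPM in stented static vessels (-3.70 ± 0.94), and the channel TRPC4 at 1.17 and 1.21 CPM in native and 7.35 and 7.72 CPM in stented static vessels (2.66 ± 0.58). The T-type calcium channel CACNA1H, at 686 and 428 CPM in native and 54.3 and 168 CPM in stented static vessels, did not pass (edgeR adjusted p = 0.0994).

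Of 29 potassium channel genes 3 rose (10.3%) and 4 fell (13.8%, median -0.16). Of these channels 1, 0, 2 and 2 rose and 2, 2, 2 and 6 fell without native 1, native 2, static 1 and static 2 in turn. The 2 sulphonylurea receptors, which are the regulatory subunits of ATP-sensitive channels, moved in opposite directions. ABCC8 was at 12.2 and 8.40 CPM in native and 0.553 and 0.0608 CPM in stented static vessels (-4.95 ± 0.91), a kept fall with 15 counts over both stented static libraries. ABCC9, the form known from smooth muscle, was at 34.1 and 17.0 CPM in native and 93.5 and 276 CPM in stented static vessels (2.85 ± 0.57, edgeR adjusted p = 0.0103), a rise that was not kept. The subunit KCNE1 was at 84.3 and 105 CPM in native and 1.58 and 5.78 CPM in stented static vessels (-4.70 ± 0.63), also a kept fall. KCNMB1, the smooth muscle subunit of the large-conductance channel, was at 318 and 359.5 CPM in native and 7.51 and 52.8 CPM in stented static vessels and missed the threshold (-3.50 ± 1.09, edgeR adjusted p = 0.0577).

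For cyclic nucleotide signalling, which relaxes vessels, 2 of 36 tested members rose (5.56%) and 7 fell (19.4%, median -0.86). For this signalling list 0, 0, 0 and 2 rose and 3, 1, 4 and 8 fell without native 1, native 2, static 1 and static 2 in turn. The nitric oxide receptor subunit GUCY1A1 was at 56.3 and 70.9 CPM in native and 8.81 and 21.1 CPM in stented static vessels (-2.10 ± 0.39) and the cAMP phosphodiesterase PDE4B at 77.6 and 72.6 CPM in native and 22.6 and 21.9 CPM in stented static vessels (-1.75 ± 0.32, edgeR adjusted p = 0.00643), of which only PDE4B was kept. The kinase subunit PRKAR2B was at 91.9 and 94.6 CPM in native and 30.1 and 17.6 CPM in stented static vessels (-1.97 ± 0.37). Of 42 vasoactive receptors and RGS proteins 4 rose (9.52%) and 9 fell (21.4%, median -0.57). Of the receptors and RGS proteins 0, 0, 2 and 2 rose and 2, 2, 3 and 4 fell without native 1, native 2, static 1 and static 2 in turn. RAMP1, a co-receptor for the dilator peptide CGRP, was at 256.2 and 219 CPM in native and 5.73 and 9.61 CPM in stented static vessels (-4.96 ± 0.62, adjusted p = 0.00107), the 1 kept call. RGS5, a regulator of G protein signalling in mural cells, was at 473 and 945 CPM in native and 28.3 and 54.6 CPM in stented static vessels (-4.10 ± 0.81). The muscarinic receptor CHRM3 had 113 counts over native and 2 over stented static libraries, a CPM ratio of native to stented static of 72.0 (95% counting interval 19.5 to 602.1). The adrenergic receptor ADRA2A was higher, at 1.04 and 1.03 CPM in native and 8.81 and 23.5 CPM in stented static vessels (3.95 ± 1.17), and RAMP2, at 85.3 and 129 CPM in native and 102 and 22.8 CPM in stented static vessels, did not pass.

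In the gap junction list the arterial connexin GJA5 was at 409 and 551 CPM in native and 41.4 and 86.4 CPM in stented static vessels (-2.91 ± 0.73). The pannexin channel PANX1 was at 5.08 and 5.46 CPM in native and 27.1 and 20.3 CPM in stented static vessels (2.17 ± 0.33, edgeR adjusted p = 0.00261), a kept rise, and PANX2 at 0.912 and 0.633 CPM in native and 12.4 and 5.29 CPM in stented static vessels (3.52 ± 0.58). GJA1, at 36.1 and 67.1 CPM in native and 156 and 159.6 CPM in stented static vessels, did not pass (1.61 ± 0.61). Of 23 Notch pathway genes 4 fell (17.4%) and 0 rose. Of the Notch genes 0, 0, 0 and 1 rose and 1, 1, 2 and 2 fell without native 1, native 2, static 1 and static 2 in turn. The receptors NOTCH3 and NOTCH1 were at 454 and 456 CPM in native and 109.5 and 152 CPM in stented static vessels and at 309 and 179 and 94.1 and 57.5 CPM respectively, and the target genes HEYL and HES1 changed by -2.997 and -2.23. No Notch call was kept. NOTCH2 was at 231 and 195 CPM in native and 138 and 282 CPM in stented static vessels and did not pass.

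In the Wnt pathway 1 of 38 tested members rose (2.63%) and 7 fell (18.4%, median -0.59). Of the Wnt genes 0, 0, 1 and 0 rose and 4, 4, 5 and 6 fell without native 1, native 2, static 1 and static 2 in turn. WIF1, which binds Wnt ligands, was at 939 and 1380.0 CPM in native and 5.14 and 40.1 CPM in stented static vessels (-5.68 ± 0.91, edgeR adjusted p = 0.00350). SFRP4 was at 85.5 and 113 CPM in native and 1.30 and 3.10 CPM in stented static vessels (-5.51 ± 0.46) and SFRP1 at 412 and 399 CPM in native and 53.9 and 70.7 CPM in stented static vessels (-2.70 ± 0.41). The receptor ROR1 was at 57.2 and 46.6 CPM in native and 1.94 and 7.12 CPM in stented static vessels (-3.54 ± 0.54). These 4 falls were kept. The related antagonist SFRP2 was higher, at 0.977 and 2.24 CPM in native and 6.17 and 24.9 CPM in stented static vessels (3.25 ± 0.83), a call that was not kept.

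Growth factors and receptor kinases showed 3 rises (6%) and 10 falls (20%) among 50 tested (median -0.53), and none was kept. Of these growth factor genes 0, 0, 1 and 2 rose and 1, 0, 3 and 5 fell without native 1, native 2, static 1 and static 2 in turn. The angiopoietin ANGPT1 was at 7.49 and 7.88 CPM in native and 0.356 and 1.03 CPM in stented static vessels (-3.50 ± 0.82) and the receptor FGFR2 at 54.2 and 37.9 CPM in native and 344 and 324 CPM in stented static vessels (2.86 ± 0.77). PDGFRB, the receptor of mural cells, was at 580.2 and 373 CPM in native and 649.8 and 476 CPM in stented static vessels and did not pass. Among IGF binding and insulin signalling genes 3 of 21 tested members rose (14.3%) and 2 fell (9.52%). IGFBP7 was at 1826 and 2619 CPM in native and 203 and 268 CPM in stented static vessels (-3.24 ± 0.34, edgeR adjusted p = 0.000534), a kept fall. PAPPA, a protease that frees IGF from its binding proteins, was at 3.00 and 2.65 CPM in native and 17.8 and 30.1 CPM in stented static vessels (3.08 ± 0.43), a kept rise. The regulatory kinase subunit PIK3R3 was at 40.1 and 35.8 CPM in native and 9.17 and 11.4 CPM in stented static vessels (-1.88 ± 0.33).

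Matrix-modifying genes moved both ways. Of 34 ADAM and ADAMTS proteases 7 rose (20.6%) and 10 fell (29.4%), and the 5 kept calls were all falls. Of these proteases 2, 0, 3 and 2 rose and 6, 6, 5 and 8 fell without native 1, native 2, static 1 and static 2 in turn. Besides ADAMTS8, ADAM22 was at 11.13 and 10.2 CPM in native and 0.0395 and 0.304 CPM in stented static vessels (-6.04 ± 0.94), ADAMTSL2 at 118 and 44.0 CPM in native and 1.30 and 2.01 CPM in stented static vessels (-5.63 ± 0.81) and ADAMTSL1 at 72.1 and 79.2 CPM in native and 0.948 and 5.60 CPM in stented static vessels (-4.56 ± 0.76). ADAMTS2, which trims procollagen, was at 183 and 169 CPM in native and 139 and 179 CPM in stented static vessels and did not pass. Of 36 hyaluronan and proteoglycan genes 2 rose (5.56%) and 8 fell (22.2%, median -0.26). Of the proteoglycan list 2, 2, 3 and 3 rose and 3, 2, 4 and 9 fell without native 1, native 2, static 1 and static 2 in turn. Both rises, of CEMIP and of HAPLN4, a link protein, were kept, with HAPLN4 at 1.69 and 1.84 CPM in native and 40.8 and 27.1 CPM in stented static vessels (4.26 ± 0.66). The heparan sulphatase SULF2 was at 135 and 135 CPM in native and 7.23 and 14.5 CPM in stented static vessels (-3.64 ± 0.40, edgeR adjusted p = 0.000627), and podocan, PODN, at 388 and 380.6 CPM in native and 78.0 and 83.0 CPM in stented static vessels (-2.26 ± 0.27). Biglycan, BGN, was at 2780.0 and 3392 CPM in native and 6635 and 4430.0 CPM in stented static vessels and did not pass. Of 22 integrins 2 rose (9.09%) and 2 fell (9.09%). The kept call was ITGA5, the fibronectin receptor subunit, at 148 and 180.3 CPM in native and 939 and 817 CPM in stented static vessels (2.42 ± 0.29, edgeR adjusted p = 0.000947).

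Feedback genes of growth factor and inflammatory signalling held calls in both directions. In the MAPK feedback list 2 of 22 tested members rose (9.09%) and 4 fell (18.2%, median -0.09). Of these feedback genes 1, 1, 1 and 2 rose and 2, 2, 4 and 2 fell without native 1, native 2, static 1 and static 2 in turn. IER2 was at 269.5 and 236 CPM in native and 27.9 and 17.8 CPM in stented static vessels (-3.46 ± 0.38) and IER5 at 412 and 431 CPM in native and 44.7 and 45.0 CPM in stented static vessels (-3.23 ± 0.31). ETV4, a transcription factor downstream of ERK, was at 3.84 and 2.19 CPM in native and 49.5 and 35.3 CPM in stented static vessels (3.82 ± 0.59). All of these 3 calls were kept. In the NF-kappaB and TNF list 1 of 28 tested members rose (3.57%) and 3 fell (10.7%), none kept. These shares were close to the 5.54% and 7.19% over all genes. The inhibitor NFKBIA was at 485 and 446 CPM in native and 138 and 49.3 CPM in stented static vessels (-2.31 ± 0.52) and TNFAIP3 at 74.6 and 64.2 CPM in native and 18.9 and 11.2 CPM in stented static vessels (-2.20 ± 0.43).

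Of 15 glucocorticoid targets 6 rose (40.0%) and 2 fell (13.3%). Of these targets 2, 2, 3 and 6 rose and 1 fell without native 1, native 2, static 1 and static 2 in turn. The chaperone FKBP5 was at 99.9 and 112 CPM in native and 439 and 589 CPM in stented static vessels (2.28 ± 0.32, edgeR adjusted p = 0.00183), and the kinase SGK1, in contrast, at 184 and 157 CPM in native and 26.9 and 18.6 CPM in stented static vessels (-2.90 ± 0.29, adjusted p = 0.000458). Both calls were kept, in opposite directions. Of 22 clock genes 3 rose (13.6%) and 5 fell (22.7%, median -0.78). Of the clock genes 0, 1, 1 and 2 rose and 3, 3, 3 and 4 fell without native 1, native 2, static 1 and static 2 in turn. The repressor CRY2 was at 367 and 229 CPM in native and 16.6 and 17.8 CPM in stented static vessels (-4.12 ± 0.34, edgeR adjusted p = 0.000217). PER2 was at 87.3 and 62.1 CPM in native and 8.38 and 14.8 CPM in stented static vessels (-2.69 ± 0.40) and the output factor HLF at 61.2 and 71.2 CPM in native and 4.27 and 10.04 CPM in stented static vessels (-3.22 ± 0.50). These 3 falls were kept. BHLHE40, at 1045 and 1103 CPM in native and 608 and 549.8 CPM in stented static vessels, did not pass. The labels do not say at which hour vessels were frozen.

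Among chemokines and their receptors 6 rose and 6 fell of 23 tested. Of the chemokine list 3, 2, 3 and 5 rose and 4, 3, 5 and 4 fell without native 1, native 2, static 1 and static 2 in turn. The receptor CCR1 was at 0.651 and 0.288 CPM in native and 50.9 and 13.4 CPM in stented static vessels (6.10 ± 0.83, edgeR adjusted p = 0.00156). The ligands CCL26 and CCL19 were at 16.1 and 13.6 CPM in native and 0.316 and 0.122 CPM in stented static vessels (-5.98 ± 0.91) and at 63.6 and 66.2 and 1.42 and 4.68 CPM (-4.43 ± 0.61). CCL21, which guides lymphocytes, was at 47.0 and 115 CPM in native and 196.3 and 4.32 CPM in stented static vessels, and its fitted change was 0.31 with all libraries and -4.22 (edgeR adjusted p = 0.0498) without static 1. Of 22 complement genes 4 rose (18.2%) and 1 fell (4.55%). Of the complement genes 1, 2, 2 and 6 rose and 0, 0, 1 and 0 fell without native 1, native 2, static 1 and static 2 in turn. Factor B, CFB, was at 2.02 and 1.73 CPM in native and 29.2 and 24.5 CPM in stented static vessels (3.84 ± 0.54, edgeR adjusted p = 0.00179), the 1 kept call, and clusterin, CLU, was at 243 and 275 CPM in native and 2147 and 1505 CPM in stented static vessels (2.82 ± 0.48). SERPING1, the C1 inhibitor, was at 961 and 1043 CPM in native and 1187 and 1067 CPM in stented static vessels and did not pass. Of 19 prostaglandin and leukotriene genes 1 rose and 3 fell, none kept: PTGS2 was at 54.8 and 60.2 CPM in native and 8.30 and 8.76 CPM in stented static vessels (-2.75 ± 0.64) and the prostacyclin synthase PTGIS at 807 and 873 CPM in native and 285 and 380.6 CPM in stented static vessels (-1.33 ± 0.28).

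In lists of general cell function the shares of calls are to be read against 5.54% higher and 7.19% lower over all genes. Of 46 cytosolic ribosomal proteins 1 was called (2.17%, median 0.08), and the call was kept. This was RPS2, at 3.19 and 2.01 CPM in native and 12.9 and 18.1 CPM in stented static vessels, whose reads may be shared with pseudogenes. Of 39 proteasome subunits 1 rose (2.56%) and 1 fell (2.56%). Of 52 nuclear-encoded respiratory chain genes 0 rose and 2 fell (median -0.19), NDUFB1 by -1.69 and NDUFB9 by -1.12. Of 28 ribosome biogenesis and MYC genes 4 rose (14.3%) and 1 fell (3.57%), with a median of 0.68 and none kept. Of 18 p53 targets 2 rose, a share above that over all genes, and 1 fell, and of 21 apoptosis regulators 1 rose (4.76%) and 3 fell (14.3%). Of the ribosome biogenesis genes 0, 0, 1 and 0 rose and 0 fell without native 1, native 2, static 1 and static 2 in turn, of the p53 targets 0 were called in any of these fits, and of the apoptosis regulators 0 rose and 2, 1, 1 and 2 fell without native 1, native 2, static 1 and static 2 in turn. The kept call among the apoptosis regulators was BOK, a BCL2 relative, at 116 and 107 CPM in native and 23.3 and 24.5 CPM in stented static vessels (-2.22 ± 0.39). MCL1, a survival factor, was at 503 and 581 CPM in native and 299 and 416 CPM in stented static vessels and did not pass.

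Markers of other wall cells also differed between the groups. Of 10 Schwann cell and nerve markers 5 fell and 0 rose (median -2.03). Of these nerve markers 0 rose and 2, 1, 2 and 4 fell without native 1, native 2, static 1 and static 2 in turn. The growth-cone protein GAP43 had 118 counts over native and 1 over stented static libraries, a CPM ratio of native to stented static of 150.4 (95% counting interval 26.5 to 5992). Of 14 fibroblast markers 2 rose (14.3%) and 4 fell (28.6%, median -0.68). The kept calls were the falls of PI16 and SFRP4, and SFRP2, given above, was among the rises. MFAP5, at 220.3 and 255 CPM in native and 5.14 and 5.60 CPM in stented static vessels (-5.47 ± 1.14), fell without being kept. Decorin, DCN, at 1645 and 1693 CPM in native and 984 and 1722 CPM in stented static vessels, did not pass. Of 7 neutrophil and mast cell markers 1 rose and 1 fell (median 1.43), and neither call was kept. The matched markers summed to 45.97 and 45.27 CPM in native and 127.8 and 61.01 CPM in stented static vessels. The fall was of the mast cell receptor subunit MS4A2, at 9.18 and 11.04 CPM in native and 0.356 and 0.122 CPM in stented static vessels (-5.30 ± 1.07). Of 12 endothelial markers only TEK, the angiopoietin receptor, was called (-1.94 ± 0.55), and it was not called without native 1, native 2 or static 2. PECAM1 was at 388 and 489 CPM in native and 513 and 218 CPM in stented static vessels. Cardiomyocyte markers summed to 1559 CPM in native 1, 113.7 CPM in native 2 and 19.4 and 56.1 CPM in stented static vessels. Of these 8 markers 5 fell and 0 rose, and of the same markers 0 rose and 1, 5, 0 and 2 fell without native 1, native 2, static 1 and static 2 in turn. The atrial myosin MYH6 was at 539.5 and 1.67 CPM in native and 3.56 and 1.16 CPM in stented static vessels, and its fitted change was -6.81 with all libraries and 0.51 without native 1.

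**Figure D3:**
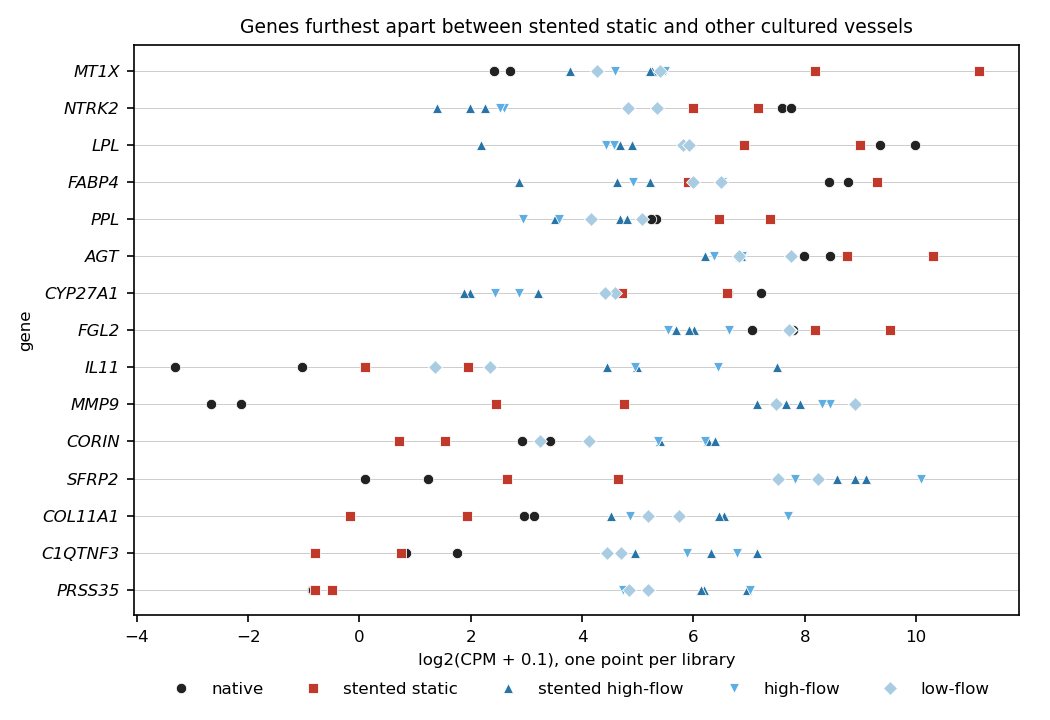
Expression in all 11 libraries, as log2(CPM + 0.1), of the genes furthest apart between stented static and other cultured vessels, 1 point per library and 1 colour and shape per group. NTRK2 is at 63.9 and 142.6 CPM in stented static vessels, between native and the other cultures, while PRSS35 is below 1 CPM in native and stented static vessels and at 26.5 CPM or more in all 7 other cultured libraries.

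To show where stented static vessels differed from other cultured vessels, they were set against the unweighted mean of the 3 flow groups in the same fit. In this comparison 506 of 15348 genes were called (3.30%), 349 higher (2.27%) and 157 lower (1.02%) in stented static vessels. Of these, 27 were also called without static 1 and without static 2 (0.176%), 21 higher (0.137%) and 6 lower (0.0391%). Against stented high-flow vessels alone 438 genes were called (2.85%), 257 higher (1.67%) and 181 lower (1.18%), and 64 of them were called with each of these 5 libraries left out in turn (0.417%). The split against stented high-flow vessels was 81 higher and 104 lower with a replicate block, 12 and 20 with only the groups compared, 201 and 223 without stented high-flow 1 and 163 and 173 without stented high-flow 3, so which direction held more calls depended on these settings. The comparisons share the stented static libraries with the one against native, so the values are given side by side. Of the genes called against native, 71 of 851 higher and 60 of 1104 lower ones were called the same way against the other cultures. In the opposite direction, 14 of the higher and 26 of the lower ones were called.

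MT1X differed from both native and cultured vessels. It stood at 2247 and 290.5 CPM in stented static vessels, at 13.6 to 44.6 CPM in the 7 other cultured libraries and at 5.21 and 6.38 CPM in native ones. The difference from the other cultures was 5.33 ± 0.57 (edgeR adjusted p = 0.00301), and it was called without either stented static library. NTRK2 (chromosome 10, 30030050 to 30429938), the receptor of the neurotrophin BDNF, was at 63.9 and 143 CPM in stented static, 192 and 215 CPM in native and 2.51 to 40.7 CPM in the other cultured libraries. It was 3.52 ± 0.28 against the other cultures (adjusted p = 0.00118), 4.81 ± 0.39 against stented high-flow (adjusted p = 0.000518) and -0.98 ± 0.39 against native (adjusted p = 0.123). Both stented static libraries lay above every other cultured library and below both native ones for NTRK2.

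FGL2 (chromosome 9, 102869044 to 102875564), a fibrinogen-like protein, was at 289.8 and 736 CPM against 46.7 to 213 CPM in the other cultures and 133 and 220.4 CPM in native vessels (2.40 ± 0.33 against the other cultures, edgeR adjusted p = 0.00686). Periplakin, PPL (chromosome 3, 37460487 to 37511879), a cytolinker, was at 165 and 88.1 CPM against 7.53 to 33.4 CPM (2.86 ± 0.34, adjusted p = 0.00407). Both calls held without either stented static library. The stented static libraries lay above all 7 other cultured ones for FGL2 and for PPL.

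The secreted protease-like protein PRSS35 (chromosome 1, 82714880 to 82734883) was at 0.474 and 0.608 CPM in stented static vessels, 0.456 and 0.460 CPM in native ones and 26.5 to 130.1 CPM in the other cultures (-6.82 ± 0.74, edgeR adjusted p = 0.00301). CORIN (chromosome 8, 37530812 to 37811226), the protease that activates natriuretic peptides, was at 1.54 and 2.80 CPM, 10.7 and 7.48 CPM and 9.33 to 83.2 CPM in the same order (-4.11 ± 0.49, adjusted p = 0.00407). MMP9 (chromosome 17, 48179690 to 48186782) was at 26.9 and 5.35 CPM in stented static and 141 to 480.0 CPM in the other cultured libraries (-4.10 ± 0.66, adjusted p = 0.0122). MMP9 therefore lay above native and below every other culture. These 3 calls held without either stented static library. The adipokine relative C1QTNF3 was at 0.474 and 1.58 CPM against 21.7 to 141 CPM (-5.80 ± 0.78), a call that did not hold in both of those fits.

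Other secreted proteins of the matrix were lower than in the other cultures without holding in both of those fits. COL11A1, a fibrillar collagen chain, was at 0.790 and 3.71 CPM against 22.8 to 207 CPM (-5.02 ± 0.99). SFRP2 was at 6.17 and 24.9 CPM against 183 to 1088 CPM (-4.77 ± 0.79), and SFRP1 at 53.9 and 70.7 CPM against 211 to 806 CPM (-2.62 ± 0.38). The cytokine IL11 was at 3.75 and 0.973 CPM against 2.45 to 182 CPM and passed only against stented high-flow (-5.02 ± 1.15, edgeR adjusted p = 0.0447).

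By list, the YAP and TEAD targets held 3 lower and 0 higher calls against the other cultures among 23 tested. CCN2 was at 50.4 and 93.2 CPM against 269 to 662 CPM (-2.59 ± 0.38, edgeR adjusted p = 0.00801) and CCN1 at 62.2 and 99.0 CPM against 162 to 891 CPM (-2.41 ± 0.49). The third was the ecto-nucleotidase NT5E. PTGS2, the inducible cyclooxygenase, was at 8.30 and 8.76 CPM against 36.4 to 619 CPM (-3.85 ± 0.62). Of 36 hyaluronan and proteoglycan genes 5 were lower (13.9%) and 1 higher, with SULF2 at 7.23 and 14.5 CPM against 31.5 to 58.1 CPM (-1.87 ± 0.33). None of these calls held both without static 1 and without static 2.

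In the other direction, 4 of 22 complement genes were higher than in the other cultures (18.2%) and 0 lower: C2, C4A, CFB and CFP. C4A changed by 2.54 ± 0.33 and CFB by 1.76 ± 0.35. Of 30 phagocyte lipid genes 6 were higher (20.0%) and 0 lower, with GPNMB at 1.496 ± 0.35 (edgeR adjusted p = 0.0471). LPL, also an adipocyte marker, was at 3.41 ± 0.54. Macrophage markers moved with the phagocyte lipid list, and the lists share members such as MSR1. Of these markers 2 of 19 were higher, with a median of 1.00. They summed to 2604 and 1154 CPM in stented static vessels against 497.0 to 1334 CPM in the other cultures, and their part was not tested. KLF15 was at 57.3 and 53.3 CPM against 10.1 to 22.97 CPM (1.89 ± 0.24, adjusted p = 0.00515), and PPP1R3C, HMOX1 and CD163 were higher by 2.16 ± 0.45, 1.89 ± 0.30 and 1.74 ± 0.37. None of the calls in this paragraph was kept when static 1 and static 2 were each left out. Lysosomal, ATF4 target, glucocorticoid, clock, ribosomal, proteasome and vasoactive lists had 0 calls against the other cultures.

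Adipocyte genes moved with the higher calls of this comparison, through static 1. Adipocyte markers summed to 3574 and 2352 CPM in native vessels, 3430.0 CPM in static 1, 349.1 CPM in static 2 and 149.3 to 446.6 CPM in the other cultured libraries. Of 12 such markers 8 were called higher than in the other cultures, and none of these calls held both without static 1 and without static 2. Against native vessels 0 were called higher and 0 lower, with a median of -0.08. That median was -2.99 without static 1 and 0.86 without static 2, so the lack of calls does not show that levels were unchanged. The fatty acid-binding protein FABP4 was at 629 and 59.6 CPM, the angiotensin precursor AGT at 1269 and 431 CPM and the sterol hydroxylase CYP27A1 at 97.6 and 26.3 CPM. FABP4 had 7.21 to 91.4 CPM in the other cultures, AGT 73.9 to 216 CPM and CYP27A1 3.59 to 23.9 CPM. The part of fat in the calls of LPL, FABP4, AGT and CYP27A1 was not tested.

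**Figure D4:**
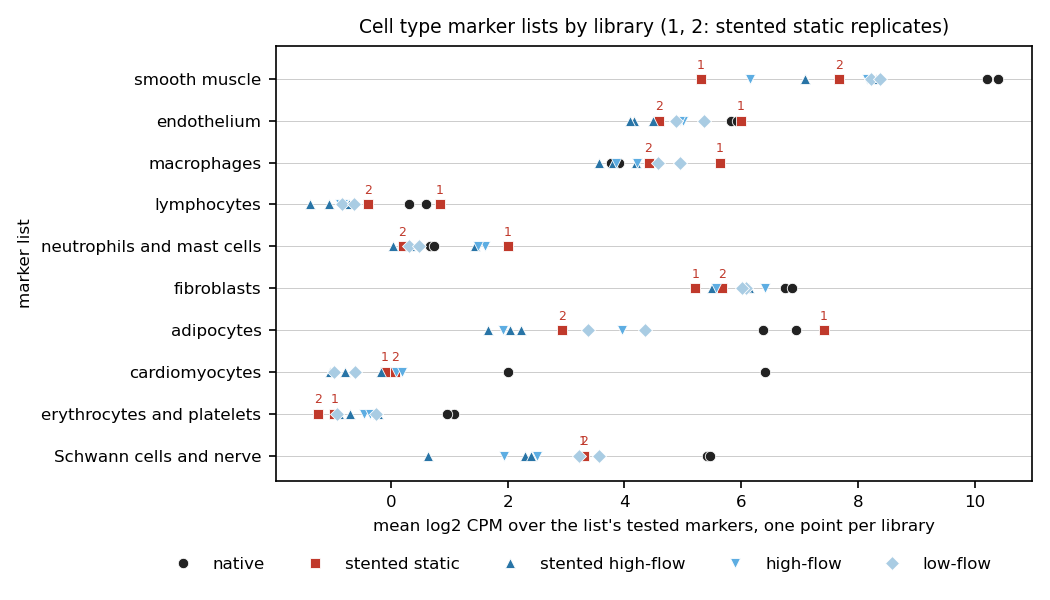
Mean log2 CPM over the tested markers of each cell type list, 1 point per library, with the 2 stented static replicates numbered. Static 1 has more adipocyte and macrophage marker signal than static 2 and less smooth muscle signal, and native 1 lies above the other libraries for cardiomyocyte markers.

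Static 1 and static 2 stood furthest apart in fat and smooth muscle genes, which is given as a description with no test. The 8 genes furthest above in static 1 were PCK1, ADIPOQ, TRARG1, DGAT2, PLIN1, THRSP, CCL21 and LIPE. The adipocyte hormone ADIPOQ was at 765 and 0.852 CPM in static 1 and static 2 and at 1075 and 615 CPM in native vessels. The lipid droplet coat protein PLIN1 was at 185 and 0.608 CPM and the lipase LIPE at 198 and 5.96 CPM. PCK1, which feeds glycerol synthesis in fat, was at 132 and 0 CPM and at 3.97 and 4.14 CPM in native vessels.

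The 8 genes furthest above in static 2 were HEPACAM, ITGA8, ACTA2, MYH11, DES, MYL9, POSTN and CNN1. Smooth muscle actin ACTA2 was at 42.6 and 624 CPM in static 1 and static 2, desmin DES at 50.0 and 481 CPM and the integrin subunit ITGA8 at 20.6 and 302 CPM. Both libraries lay below native for ACTA2 (7661 and 9667 CPM) and DES (2799 and 3248 CPM). HEPACAM, a cell adhesion protein, was at 0.711 and 179 CPM, at 2.47 and 3.45 CPM in native vessels and at 0.140 to 2.52 CPM in the other cultures. No other library exceeded 4 CPM for HEPACAM. Periostin, POSTN, a matricellular protein of injured vessels, was at 33.4 and 283 CPM, against 380.3 and 353 CPM in native vessels.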

How the data were processed

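Frozen coronary arteries of pigs gave column-purified RNA for paired-end sequencing, per the labels' protocols. Trimmomatic, FastQC, DESeq2 and the build Sscrofa11.1 are named in the submitters' processing notes. The aligner, the read counter with its strand setting, and the gene annotation are not named in the labels or file headers (not given in the sources used here). Whole-number counts of reads per gene and library were deposited by the authors, in 2 tables that repeat the native columns, and these were joined by gene ID. The authors' deposited table of changed genes gives log2 fold changes and served only to count shared genes. Of 25880 gene IDs 14857 have a symbol, and the positions printed are RefSeq spans in Sscrofa11.1 matched by symbol.

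The counts were fitted with edgeR 4.0.16 (R 4.3.3). Genes passing filterByExpr (15348) were scaled by TMM and fitted as 5 groups together, leaving 6 residual degrees of freedom, with quasi-likelihood F-tests, Benjamini-Hochberg adjustment and a threshold of 0.05. A prior count of 2 entered log2 CPM. Standard errors are the log2 fold change divided by the square root of F. The code was tested on simulated data, in which 200 of 15348 genes were changed per draw and all groups otherwise shared a common mean. Against native, 1.19% of 2-fold, 37% of 4-fold and 70.9% of 8-fold changes were called there. More genes were called in the data than were changed in the simulation, so these shares may differ in the data. A gene that was not called may still have changed by such amounts. The 3 comparisons, the 41 gene lists and the 11 marker and check lists (1449 members, 1241 matched, 1188 tested) were chosen with earlier results of these data known.

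Named genes were the 12 largest kept rises and 12 largest kept falls with a symbol, non-overlapping libraries and a mean log2 CPM of at least 5. Per list they were up to 4 called members, kept ones first, and the uncalled member with the highest level. The 6 largest rises and falls in each comparison with cultured vessels were added under the same limits, as were the 8 genes furthest above in each stented static library among those with a log2 CPM of at least 6. MYH11, ACTA2, PECAM1 and CD163 checked the tissue. Members of short counts such as NT5E, C2, C4A and CFP, SLC39A14 beside iron genes, and values of list members against cultured vessels were chosen after they were seen. The alternative fits used DESeq2 1.42.0, limma-voom (limma 3.58.1), other scalings, filters and thresholds, a replicate block, fewer groups or tables and leaving out each library.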

Additional observations from a re-analysis of the deposited data

How the results depend on the processing

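Counts of called genes moved by more than 1.5 times under some alternatives. Against native, the 1955 calls became 3089 with DESeq2, 596 at a threshold of 0.01 and 1232 with the libraries of 1 count table, and 514 to 2474 with single libraries left out. With limma-voom 33.8% of calls were higher, against 43.5%. Against stented high-flow, the 438 calls became 1368 with DESeq2, 1003 with no filter, 60 at 0.01, 32 with only the groups compared, 160 with 1 count table and 95 to 784 with single libraries left out. Against the other cultures, the 506 calls became 1265 with DESeq2, 966 with no filter, 323 with at least 10 counts in every library, 65 at 0.01, 274 with only the groups compared and 38 to 761 with single libraries left out, and 1 count table was not run. In both comparisons with cultured vessels, the lowest count with a single library left out came without static 1 and the highest without static 2. The cause of the differences between settings was not tested, apart from fewer samples, genes or a stricter threshold where the alternative is built that way.

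With a replicate block the counts were 1824, 185 and 322. The deviations of native 1 and static 1 from their group means correlated at 0.129 over genes, and replicate numbers are shared between the groups only as numbers. The sample descriptions of native 2 and stented high-flow 1 both carry the number 25. Whether these libraries share an animal is not stated, and they were fitted as independent.

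The next count leaves aside genes named only for their gap between static 1 and static 2. Among the other genes described against native, 2 changed sign with a call in either fit. CCL21 went from 0.31 to -4.22 without static 1, in a range of -4.22 to 1.27 over left-out libraries. MYH6 went from -6.81 to 0.51 without native 1, in a range of -7.83 to 0.51. The cause was not tested. Genes that passed in neither fit changed sign too, among them SLC40A1 (0.83 to -0.02 without static 2), CEBPB (0.12 to -0.52 without static 1), SLC38A2 (0.29 to -0.12 without static 2) and NOTCH2 (-0.02 to 0.42 without static 1). Of the genes left aside from that count, PCK1 went from 4.03 to -9.28, PLIN1 from 0.04 to -7.18 and LIPE from 0.81 to -3.27 without static 1. A level of 3 counts was 0.105 to 0.215 CPM depending on the library, and smaller levels were not resolved.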
